A study of Mus musculus with 30 samples.

Results

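Crb1, Igf2bp1 and Fgfbp1 are 3 kidney genes with large differences in mRNA between mice on high-fat diet (HFD) and mice on standard-fat diet (SFD). They were taken by name from the 41128 genes of the deposited kidney count table. They had been picked for their kidney diet differences, so those differences are given here as values per mouse, without a test. All 3 passed the filter on low counts in the kidney, and none of the 3 passed it in the aorta. RNA was sequenced from kidney tissue of 16 male mice, 4 each in the groups WT-SFD, WT-HFD, KO-SFD and KO-HFD, and from aortae of 14 male mice, 3 on SFD and 4 on HFD per genotype. KO mice lack the floxed part of Egfr, the gene of the epidermal growth factor receptor, in smooth muscle cells, where the promoter Smmhc (Myh11) drives a Cre that tamoxifen switches on. WT mice carried the same Y-linked Cre without loxP sites. Both genotypes received 1 mg tamoxifen per day for 5 days, and the diets began 7 days later, at 6 weeks of age, and lasted 18 weeks. The floxed mice were C57BL/6 and the Cre mice C57BL/6N, and the labels give the strain background as C57Bl6J. C57BL/6N mice are known to carry a loss-of-function allele of Crb1 that C57BL/6J mice lack, and counts per gene do not show which allele was transcribed.

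Values are FPM, the counts of a gene in a library scaled to 1000000 counts with edgeR's TMM factors. Mice are numbered from 1 within each group and tissue, only as names, and values of a group are given in that order. Kidney libraries held 16354880 to 28331314 counts (median 19544128) and aorta libraries 6403699 to 13052870 (median 8998366). In the kidney, Slc34a1 and Umod, markers of the proximal tubule and of the thick ascending limb, averaged 7704 and 4729.8 FPM in WT-SFD mice. In the aorta, Myh11 and Acta2 of smooth muscle averaged 5611 and 5394 FPM in WT-SFD mice, and Umod had no count in any library. Egfr in the kidney did not differ detectably between KO and WT mice over both diets (log2 fold change -0.0016, edgeR adjusted p = 0.999). In the aorta it was lower in KO mice by a log2 fold change of -0.67 (edgeR adjusted p = 0.0141), where 0.196% of 14796 aorta genes were called. This call of Egfr was lost without KO-SFD aorta 1 or 3, and with library totals in place of TMM factors (-0.49, edgeR adjusted p = 0.214). Nnt, which is disrupted in C57BL/6J but not in C57BL/6N mice, reached 139 and 134 FPM in WT-HFD mice 3 and 4 and 213 to 326 FPM in the other 14 kidneys. Without both mice, the diet differences in WT kidneys were 5.71 for Crb1, -2.36 for Igf2bp1 and -0.83 for Fgfbp1 on the log2 scale.

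The 3 genes encode proteins of unrelated kinds. Crb1 is a member of the Crumbs family, transmembrane proteins that anchor a polarity complex at the apical side of epithelial cells and photoreceptors, where they work beside the Par complex. Igf2bp1 is an RNA-binding protein that holds and stabilises target mRNAs such as those of Igf2, Actb and Myc, and it is best known from embryonic tissue and tumours. Fgfbp1 is a secreted carrier that releases fibroblast growth factors from heparan sulphate in the matrix, so that they can reach their receptors.

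Crb1 (ENSMUSG00000063681; GRCm38 chromosome 1, 139197056 to 139377100, minus strand, 14 exons after merging transcripts) was close to absent on SFD and present in every kidney on HFD. In WT-SFD kidneys it had 1, 0, 4 and 0 counts, which gave 0.0542, 0, 0.137 and 0 FPM. WT-HFD kidneys had 80, 56, 73 and 68 counts, or 3.70, 2.86, 4.15 and 3.25 FPM. The lowest WT-HFD mouse was thus far above the highest WT-SFD mouse. In KO-SFD kidneys, mouse 3 had 2 counts (0.102 FPM), and mice 1, 2 and 4 had none. KO-HFD kidneys had 36, 67, 35 and 75 counts, or 1.95, 2.90, 2.22 and 3.77 FPM. Again the diets did not overlap. A count of 0 allowed up to 0.145 to 0.164 FPM in the 3 KO-SFD libraries without a count, and 0.188 and 0.134 FPM in WT-SFD mice 2 and 4 (3 counts per library). Summed over the libraries of a group, Crb1 had 5 counts in WT-SFD and 277 in WT-HFD kidneys. Scaled by library size and TMM factor, this was a ratio of 59.7. The sums in KO kidneys were 2 and 213, a ratio of 106. Both ratios rest on few SFD counts and pool the mice of a group. The fitted log2 fold changes of HFD against SFD were 5.79 (SE 0.558) in WT and 6.40 (SE 0.639) in KO kidneys, and rest on the few counts of WT-SFD mouse 3 and KO-SFD mouse 3. Leaving out WT-SFD mouse 3 raised the WT value to 7.18. Leaving out KO-SFD mouse 3 left only zeros in KO-SFD, so that the fitted value of 8.77 is set by the prior count. The bases upstream of Crb1 are shown because this gene and Fgfbp1 differed in opposite directions between the diets. The stretch is RefSeq sequence of chr1:139377101-139377326 (GRCm38.p6, minus strand, read towards the gene), with a CACGTG match, the E-box letters, in capitals.
Crb1: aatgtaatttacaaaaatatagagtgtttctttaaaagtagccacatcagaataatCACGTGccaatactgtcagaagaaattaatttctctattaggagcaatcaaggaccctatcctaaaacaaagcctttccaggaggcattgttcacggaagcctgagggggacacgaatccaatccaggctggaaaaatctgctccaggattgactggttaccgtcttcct
CACGTG occurred once in the Crb1 window of 300 bases, 170 bases before the annotated start, and 7.15% of 32851 RefSeq promoter windows of that length hold it. Both strands were searched for a TATA box (TATAAA, held by 13.6% of the windows), a GC box (GGGCGG, 35.7%), a nuclear receptor half-site (TGACCT, 16.3%) and a C/EBP type site (TTGCGCAA, 0.183%), and the Crb1 window held none of these letters.

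Igf2bp1 (ENSMUSG00000013415; GRCm38 chromosome 11, 95957163 to 96005940, minus strand, 17 exons after merging) was lower on HFD in both genotypes. WT-SFD kidneys had 7.21, 5.91, 5.76 and 5.92 FPM, and WT-HFD kidneys 1.57, 0.816, 1.76 and 1.43 FPM. Every WT-HFD kidney lay below every WT-SFD kidney. KO-SFD kidneys had 9.26, 8.35, 8.79 and 5.68 FPM, and KO-HFD kidneys 2.77, 2.16, 1.27 and 1.61 FPM. The diets were separate here too, and mouse 4 was the lowest KO-SFD kidney by a wide margin. The mean was 4.44 times higher on SFD than on HFD in WT and 4.11 times higher in KO kidneys. The log2 fold changes of HFD against SFD were -2.15 (SE 0.253) in WT and -2.03 (SE 0.246) in KO kidneys. Exons of the miRNA gene Mir3063 share 92 bases and those of the antisense gene Gm29202 share 43 bases with Igf2bp1, of 9682 exonic bases. Mir3063 lies on the strand of Igf2bp1, so reads there cannot be told apart by strand. The strand setting of the counting is not given in the sources used here, so reads shared with Gm29202 cannot be told apart either.

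Fgfbp1 (ENSMUSG00000048373; GRCm38 chromosome 5, 43978858 to 43981779, minus strand, 2 exons) was also lower on HFD, by less. WT-SFD kidneys had 3.74, 3.83, 4.66 and 3.90 FPM, and WT-HFD kidneys 2.27, 2.30, 1.82 and 2.20 FPM. These groups did not overlap. KO-SFD kidneys had 5.21, 8.25, 4.65 and 5.63 FPM, and KO-HFD kidneys 1.95, 2.34, 1.58 and 2.16 FPM. KO-SFD mouse 2 was the highest of all 16 kidneys, and all KO-HFD kidneys lay below all KO-SFD kidneys. The mean was 1.88 times higher on SFD than on HFD in WT and 2.95 times higher in KO kidneys, and the log2 fold changes of HFD against SFD were -0.91 (SE 0.192) and -1.55 (SE 0.193). The upstream stretch, RefSeq sequence of chr5:43981800-43982049 (GRCm38.p6, minus strand, read towards the gene), ends at the RefSeq start and holds none of the letters searched.
Fgfbp1: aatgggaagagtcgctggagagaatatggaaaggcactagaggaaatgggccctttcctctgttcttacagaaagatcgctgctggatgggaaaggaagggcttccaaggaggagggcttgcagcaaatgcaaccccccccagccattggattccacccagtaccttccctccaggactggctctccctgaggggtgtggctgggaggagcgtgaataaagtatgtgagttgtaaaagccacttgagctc
The single match in the window of 300 bases, TATAAA at chr5:43981791-43981796, lies past the RefSeq start at 43981799, inside the RefSeq transcript, and 17 bases before the GENCODE start.

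**Figure D1:**
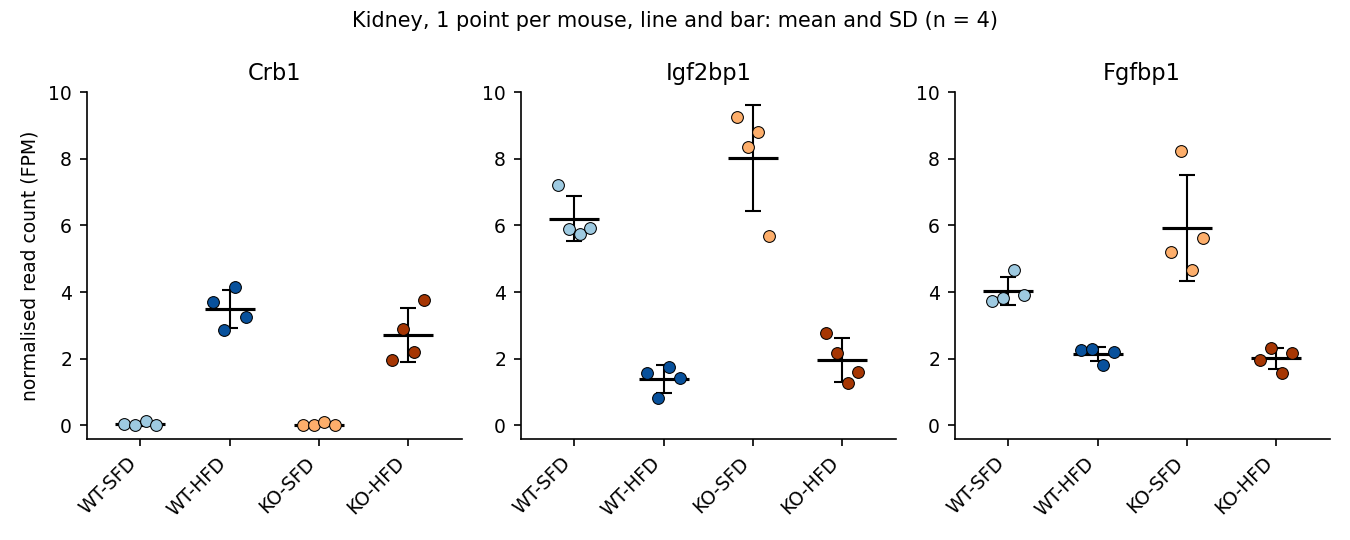
Normalised read count (FPM, vertical axis from 0 to 10) of Crb1, Igf2bp1 and Fgfbp1 in the kidney by group (horizontal axis), with 1 point per mouse and the mean and SD of 4 mice as line and bar. Crb1 lies near 0 on SFD and between 1.95 and 4.15 FPM on HFD, and Igf2bp1 and Fgfbp1 lie lower on HFD than on SFD in both genotypes.

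Both HFD groups had the highest means for Crb1, and both SFD groups for Igf2bp1 and Fgfbp1, and the order of WT and KO within a diet differed between the genes. Crb1 was highest in WT-HFD (3.49 ± 0.559 FPM, SD, n = 4), followed by KO-HFD (2.71 ± 0.812), WT-SFD (0.0478 ± 0.0647) and KO-SFD kidneys (0.0256 ± 0.0511). For Igf2bp1 the order was KO-SFD (8.02 ± 1.60 FPM, SD, n = 4), WT-SFD (6.20 ± 0.679), KO-HFD (1.95 ± 0.657) and WT-HFD (1.40 ± 0.409). Fgfbp1 had the order KO-SFD (5.93 ± 1.59 FPM, SD, n = 4), WT-SFD (4.03 ± 0.423), WT-HFD (2.15 ± 0.221) and KO-HFD (2.01 ± 0.324). Neighbours in these orders that shared a diet overlapped in all 6 pairs, and neighbours of unlike diet did not overlap. In the kidney, 3.02% of 15034 genes tested had all WT-HFD mice above all WT-SFD mice and 1.99% had them all below. In KO the shares were 5.02% and 3.85%. Since the genes were chosen by these contrasts, nothing further is read from their separation. Crb1 passed the filter on low counts only through its HFD kidneys. As a description, its log2 fold change ranked 2nd among those in the same direction in both genotypes. That of Igf2bp1 ranked 4th in WT and 22nd in KO, and that of Fgfbp1 114th in WT and 50th in KO kidneys. The KO value minus the WT value was 0.61 for Crb1, 0.12 for Igf2bp1 and -0.64 for Fgfbp1 on the log2 scale, also as a description. With 1 kidney left out, it changed sign for Crb1 (-0.78 without WT-SFD mouse 3 to 2.98 without KO-SFD mouse 3) and for Igf2bp1 (-0.091 to 0.276, below 0 without WT-HFD mouse 2, KO-SFD mouse 4 or KO-HFD mouse 1).

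Per kilobase of merged exons, all 3 genes were of low abundance. Crb1 averaged 0.242 FPM per kb in WT-HFD and 0.188 in KO-HFD kidneys, above 6.68% and 4.67% of the 14915 tested genes with a known length. Igf2bp1 averaged 0.640 FPM per kb in WT-SFD and 0.828 in KO-SFD kidneys, above 17.5% and 20.1% of these genes, and 0.144 and 0.202 FPM per kb on HFD. Fgfbp1 averaged 1.78 and 2.62 FPM per kb on SFD, above 32.4% and 39.4% of these genes, and 0.948 and 0.887 FPM per kb on HFD. The kidney was sequenced as a tissue of many cell types, in which fewer cells of a type and less RNA per cell cannot be told apart.

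Across the 16 kidneys, Pearson's r of log2(FPM + 1) was -0.940 between Crb1 and Igf2bp1, -0.876 between Crb1 and Fgfbp1, and 0.882 between Igf2bp1 and Fgfbp1. The diet of the mice is in all of these values. For the deviations from the group means, r was 0.091, 0.079 and -0.034, so the mice within a group that were high for 1 of the genes were not in general high or low for another. All points share their libraries between the genes.

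The genotype comparison asks whether deletion of Egfr in smooth muscle moved the genes in the kidney, and it was not used to choose them. None of the 3 genes passed the test of KO against WT over both diets. Crb1 averaged 1.77 FPM in 8 WT and 1.37 FPM in 8 KO kidneys (log2 fold change -0.66, SE 0.563, edgeR adjusted p = 0.878). Igf2bp1 averaged 3.80 and 4.99 FPM (0.43, SE 0.174, edgeR adjusted p = 0.851). Fgfbp1 averaged 3.09 and 3.97 FPM (0.23, SE 0.135, edgeR adjusted p = 0.855). Only 0.0133% of the 15034 genes were called in this comparison, namely Camk2b (-4.07) and Pisd-ps2 (-1.03), named after their values were seen. The call of Camk2b held in all 22 alternatives, and that of Pisd-ps2 was lost in 16 of 22, among them leaving out any 1 kidney other than WT-SFD mouse 2, WT-HFD mouse 4 or KO-HFD mouse 1. Within a diet, given without a test, Crb1 in KO against WT kidneys was at -0.97 on SFD and -0.36 on HFD on the log2 scale. The values were 0.37 and 0.49 for Igf2bp1, and 0.55 and -0.09 for Fgfbp1. The genotype value of Crb1 rests on few counts: without WT-SFD mouse 3 it was 0.03, and without KO-SFD mouse 3 it was -1.85.

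The aorta, sequenced from other libraries at another facility, showed almost none of the 3 mRNAs. Of all 14796 aorta genes tested, edgeR called 0% for diet in either genotype at an adjusted p under 0.05, with 2464 genes in WT and 1106 in KO at an unadjusted p under 0.05. DESeq2 called 666 and 8. Crb1 had 2, 4 and 0 counts in WT-SFD aortae (0.273, 0.410 and 0 FPM) and 4, 2, 1 and 1 counts in WT-HFD aortae (0.408, 0.201, 0.104 and 0.128 FPM). In KO aortae it had 0, 1 and 4 counts on SFD (0, 0.139 and 0.363 FPM) and 4, 2, 3 and 3 counts on HFD (0.489, 0.188, 0.240 and 0.410 FPM). The diets overlapped in both genotypes. The difference of mean log2(FPM + 1), HFD minus SFD, was -0.01 in WT (exact permutation test, two-sided, p = 0.914) and 0.20 in KO aortae (exact permutation test, two-sided, p = 0.229). Igf2bp1 had 3, 1 and 0 counts in WT-SFD, 1, 3, 1 and 0 in WT-HFD, 1, 0 and 1 in KO-SFD and 2, 0, 1 and 1 in KO-HFD aortae, and its highest value was 0.409 FPM in WT-SFD mouse 1. The difference between the diets was -0.05 in WT and 0.05 in KO aortae (exact permutation tests, two-sided, p = 0.857 and p = 0.686). With 3 against 4 mice the smallest p these tests can give is 0.0571. Fgfbp1 had 0 counts in all 14 aortae, which allows at most 0.240 to 0.433 FPM per library. A diet difference of the size seen in the kidney was not detectable for Igf2bp1 and Fgfbp1 at this depth. The kidney level of Crb1 on HFD was above every aorta, while the aortae on SFD reached values above those of the SFD kidneys, with 4 counts at most in a library. Comparisons across the tissues are descriptions, since facility and tissue cannot be told apart. Markers of adipocytes differed between the SFD aortae: their summed level was 1636, 1048 and 30.6 FPM in WT on SFD, 816, 316 and 28.8 FPM in KO on SFD, and at most 93.0 FPM in the HFD aortae. Their most abundant gene was Ucp1. Their part in the aorta values was not tested. By their labels, 3 mice were measured in both tissues. Crb1 was 0.0542 FPM in the kidney and 0.273 FPM in the aorta of the WT-SFD mouse, 0.102 and 0 FPM in the KO-SFD mouse, and 2.90 and 0.240 FPM in the KO-HFD mouse.

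**Figure D2:**
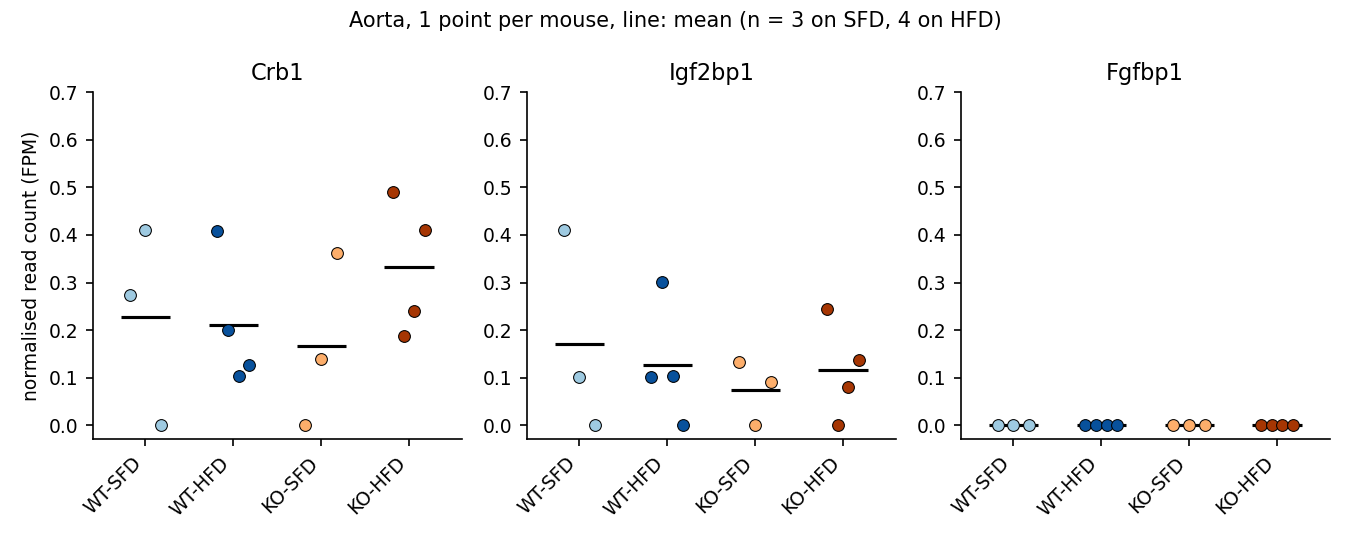
Normalised read count (FPM, vertical axis from 0 to 0.7) of Crb1, Igf2bp1 and Fgfbp1 in the aorta by group (horizontal axis), with 1 point per mouse and the mean as line (3 mice on SFD and 4 on HFD per genotype). No value exceeds 0.489 FPM, the diets overlap for Crb1 and Igf2bp1, and Fgfbp1 is at 0 in all 14 aortae.

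The partners of Crb1 were examined beside it, although Crb1 itself had been chosen for its diet difference. Of 22 genes of the Crumbs and Par polarity complexes, 20 passed the filter in the kidney, and 0 of the 20 were called at an edgeR adjusted p under 0.05 in either genotype. For all genes tested, 0.911% were called in WT and 2.3% in KO kidneys. With shares this low, 0 calls among 20 genes do not set the list apart from all genes. At an unadjusted p under 0.05, 1 list gene was higher and 1 lower in WT, and 1 higher and 3 lower in KO kidneys, where 7.9% and 15.8% of all genes tested passed that limit. The median log2 fold change of the list was -0.06 in WT and 0.05 in KO, beside -0.0040 and -0.0041 for all genes. Crb3, the Crumbs protein of most epithelia, had 48.7 FPM in WT-SFD and 43.6 FPM in WT-HFD kidneys (-0.16, edgeR adjusted p = 0.878), and -0.25 in KO (edgeR adjusted p = 0.309). Crb2, the Crumbs protein of podocytes, had 4.32 and 4.21 FPM (-0.03, edgeR adjusted p = 1) and 0.33 in KO (edgeR adjusted p = 0.509). The list ran from -0.23 (Scrib) to 0.67 (Lin7a) in WT and from -0.71 (Lin7b) to 0.71 (Lin7a) in KO kidneys. Pard3 and Pard6a had no count in any library of either tissue and were not analysed here. The same held for Syncrip and Fgf20 of the lists below and for the markers Cdh5, Tagln, Cnn1, Cd3e and Upk2, including markers of smooth muscle and endothelium in the aorta.

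The list around Igf2bp1 held its relatives, partner proteins and bound mRNAs. Of its 19 genes, 13 passed the filter, and edgeR called 0 in either genotype. At an unadjusted p under 0.05, 0 list genes passed in WT, and 2 were higher and 0 lower in KO kidneys. Of all genes, 0.911% in WT and 2.3% in KO were called, and 7.9% and 15.8% passed the unadjusted limit. The median log2 fold change was -0.05 in WT and -0.02 in KO. Igf2bp2, the relative found in adult tissue, had 6.50 FPM in WT-SFD and 6.20 FPM in WT-HFD kidneys (-0.06, edgeR adjusted p = 0.998), and 5.30 and 7.88 FPM in KO (0.57, edgeR adjusted p = 0.268). Igf2bp3, a fetal relative, stayed under the filter at 0.267 to 0.327 FPM. Of the bound mRNAs, Igf2 was at -0.26 in WT and -0.13 in KO, Myc at -0.10 and -0.01, and Cd44 at 0.43 and 0.57, none past the test.

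In the FGF pathway, 22 of 29 list genes passed the filter. In WT kidneys edgeR called 0 (0.911% of all genes), and 3 were higher and 2 lower at an unadjusted p under 0.05 (7.9% of all genes). In KO kidneys edgeR called 1 (2.3% of all genes), and 6 were higher and 3 lower at an unadjusted p under 0.05 (15.8% of all genes). Over all 3 pathway lists, DESeq2 called 2 genes in WT and 4 in KO, where edgeR called 0 and 1. The median log2 fold change of the FGF list was -0.07 in WT and 0.03 in KO. The called gene was Dusp6, a phosphatase that feeds back on ERK downstream of FGF receptors. Its mean rose from 31.4 to 62.4 FPM in KO kidneys (log2 fold change 0.99, SE 0.151, edgeR adjusted p = 0.0013), and it was 42.3 and 61.1 FPM in WT kidneys (0.53, edgeR adjusted p = 0.154). HFD kidneys did not overlap SFD kidneys for Dusp6 in either genotype (3.02% of all genes in WT and 5.02% in KO had all HFD mice above all SFD mice), opposite in direction to Fgfbp1. Fgfbp3, a second carrier protein, was at -0.08 in WT and -0.28 in KO (edgeR adjusted p = 0.992 and 0.537). Of the receptors, Fgfr1 was at -0.07 and 0.09, Fgfr2 at -0.04 and -0.49, Fgfr3 at -0.0034 and 0.37, and Fgfr4 at -0.05 and 0.03, none past the test. Among ligands, the range ended at Fgf10 with 1.60 in WT (edgeR adjusted p = 0.125) and at Fgf1 with -0.74 in KO (edgeR adjusted p = 0.362). Kl, the co-receptor of FGF23 and the most abundant gene of the list, had 484 and 380 FPM in WT (-0.35, edgeR adjusted p = 0.532) and 377 and 382 FPM in KO kidneys.

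**Figure D3:**
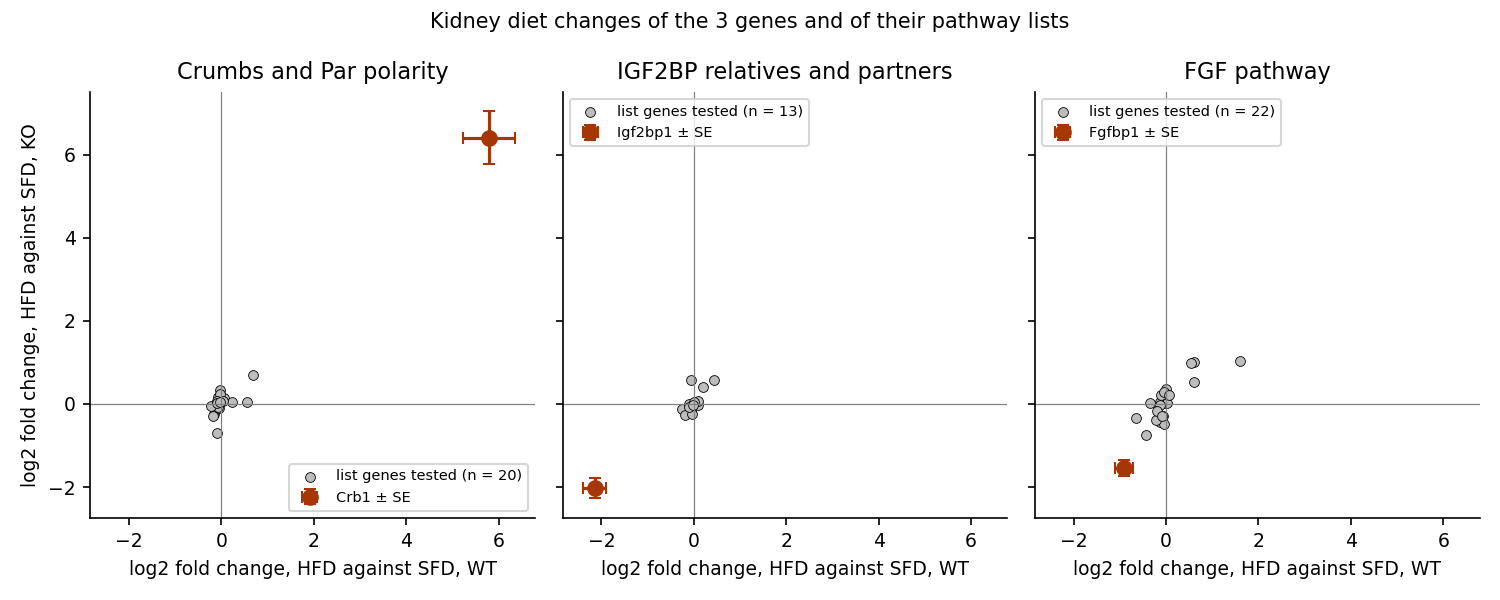
Log2 fold change of HFD against SFD in WT kidneys (horizontal axis) against that in KO kidneys (vertical axis) for the tested genes of the 3 pathway lists (grey points, 20, 13 and 22 genes), with Crb1, Igf2bp1 and Fgfbp1 ± SE in colour. The list genes lie around 0. The 3 genes were chosen for these diet differences, so their distance from the list genes is not read as a result.

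The kidney genes most like each of the 3 in pattern were taken by Pearson's r of log2(FPM + 1) over the 16 kidneys, without a test. For Crb1 they included Gc, the vitamin D-binding protein (r = 0.958), Igsf9 (0.958) and Tfpi, an inhibitor of blood coagulation (0.956). The means of these 3 genes were higher on HFD in both genotypes. Gc went from 23.5 to 107 FPM in WT and from 20.4 to 105 FPM in KO means. For the deviations from the group means, r with Crb1 was 0.37 for Gc, 0.47 for Igsf9 and 0.60 for Tfpi. For Igf2bp1 they were P4ha2, a collagen prolyl hydroxylase (r = 0.905), Mms19, a factor of iron-sulphur protein assembly (0.902), Cyp2d12 of the cytochrome P450 family (0.896), Ndrg2 (0.892) and Ceacam2 (0.888). Cyp2d12 had a fold of about the size of Igf2bp1, with log2 fold changes of -2.19 in WT and -2.12 in KO, but it has close paralogs, so that its counts are uncertain. P4ha2 and Mms19 moved by little, with -0.23 and -0.18 in WT. For Fgfbp1 they were Aktip (r = 0.954), Gm29084 (0.912), Ndrg2 (0.901), Tmigd1, an adhesion protein of renal epithelium (0.893), and 1110020A21Rik (0.884). Ndrg2 was thus near both Igf2bp1 and Fgfbp1. Its means were 165 FPM on SFD and 117 FPM on HFD in WT, and 194 and 113 FPM in KO. For the deviations from the group means, r of the genes named ran from 0.20 (Ndrg2) to 0.76 (Ceacam2) with Igf2bp1. With Fgfbp1 it ran from 0.22 (Ndrg2) to 0.62 (1110020A21Rik).

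**Figure D4:**
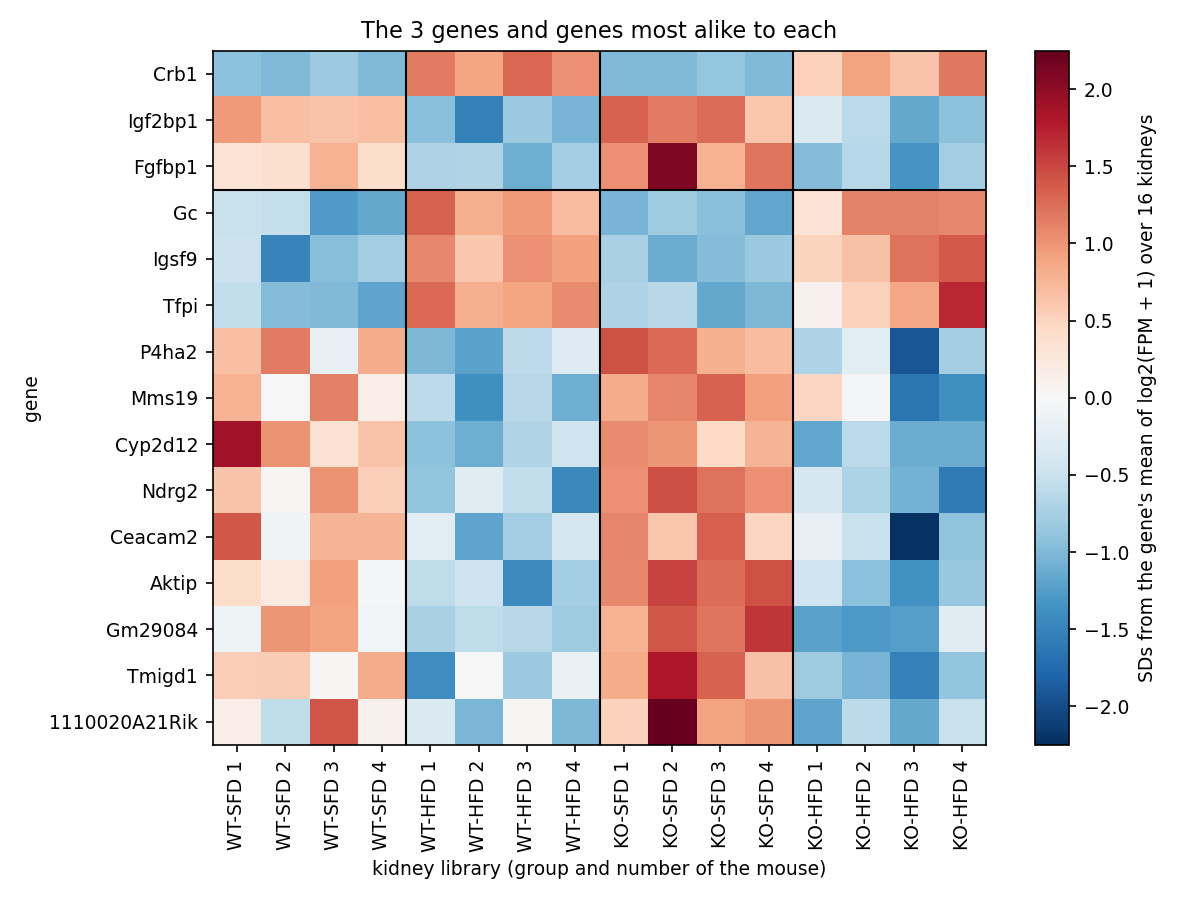
Heat map of the 3 genes (top rows) and of genes most alike to each (rows), over 16 kidneys (columns, by group and mouse), coloured by the number of SDs from the gene's mean of log2(FPM + 1). Crb1 and the genes like it are high on HFD. Igf2bp1, Fgfbp1 and the genes like them have higher means on SFD than on HFD in both genotypes. For some of the like genes, such as 1110020A21Rik in WT, single kidneys of the diets overlap.

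Of the genes next to the 3 on their chromosomes, 1 was called, in KO kidneys. Of the 18 nearest protein-coding genes, 3 on each side of each gene, 15 passed the filter. In WT kidneys 0 of 15 were called (0.911% of all genes), with log2 fold changes from -0.38 to 0.39. In KO kidneys 1 of 15 was called (2.3% of all genes), with log2 fold changes from -1.04 to 1.49. It was F13b, a coagulation factor subunit 124.6 kb from Crb1, at 102 FPM on SFD and 153 FPM on HFD (0.58, edgeR adjusted p = 0.0349). This call was lost in 11 of 23 alternatives, among them leaving out KO-SFD mouse 2, 3 or 4, KO-HFD mouse 2, 3 or 4, or WT-HFD mouse 4, with the value between 0.51 and 0.69. The ends of the range were Aspm, 77.7 kb from Crb1, at 1.49 with means of 0.304 and 0.867 FPM (edgeR adjusted p = 0.155), and Bst1, 134.9 kb from Fgfbp1, at -1.04 with means of 30.5 and 14.7 FPM (edgeR adjusted p = 0.304). Dennd1b, 18.1 kb from Crb1, was at -0.13 in WT and 0.11 in KO. Snf8, 28.9 kb from Igf2bp1, was at -0.09 and -0.26, and Gip, 18.6 kb away, stayed under the filter. Prom1, 11.8 kb from Fgfbp1, was at -0.02 and 0.02 (edgeR adjusted p = 1 and 0.97).

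**Figure D5:**
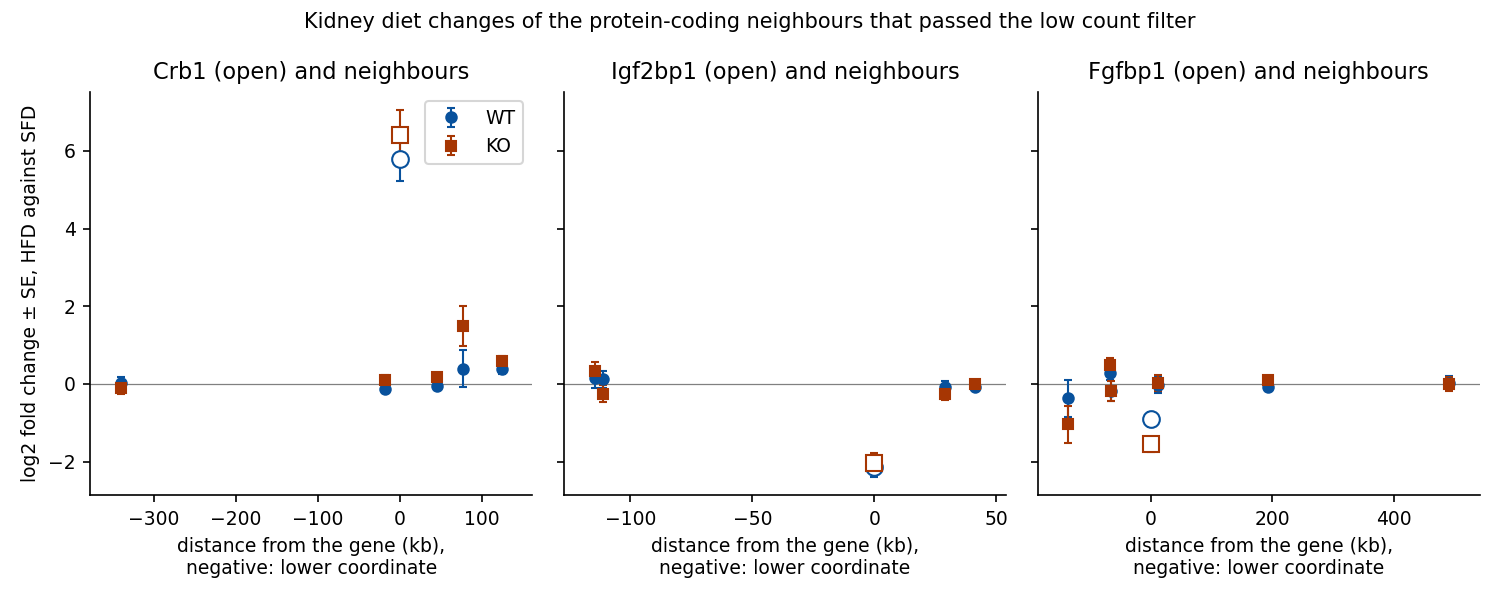
Log2 fold change ± SE of HFD against SFD in WT (circles) and KO kidneys (squares) for each of the 3 genes (open symbols at 0 kb) and the tested neighbours (filled), by distance in kb along the chromosome. The neighbours lie between -0.13 and 1.49 for Crb1, -0.26 and 0.32 for Igf2bp1, and -1.04 and 0.50 for Fgfbp1. The 3 genes were chosen for these diet differences, so their distance from the neighbours is not read as a result.

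Lists for the state of the kidney were read beside all genes tested, of which 0.911% in WT and 2.3% in KO were called for diet, and 7.9% and 15.8% passed an unadjusted p under 0.05. Of 17 clock genes, 1 was called in each genotype: Bhlhe40, a transcriptional repressor, rose from 70.0 to 125 FPM in WT (0.83, edgeR adjusted p = 8.0e-04) and from 87.9 to 127 FPM in KO kidneys (0.53, edgeR adjusted p = 0.0142). The call in KO was lost without KO-HFD mouse 3 and in a fit of only the groups compared (0.52, edgeR adjusted p = 0.0795). At an unadjusted edgeR p under 0.05, 4 clock genes were higher and 1 lower on HFD in WT, and 2 higher and 1 lower in KO. The median of the clock list was 0.52 in WT and -0.09 in KO kidneys. For KO against WT over both diets, 0 clock genes were called, and 10 were higher and 3 lower at an unadjusted edgeR p under 0.05 (5.69% of all genes). None of 7 tubule injury genes was called (medians -0.11 and 0.01; 1 higher in WT, and 1 higher and 1 lower in KO at an unadjusted edgeR p under 0.05). None of 10 genes that respond to dietary fat, such as Cyp4a10, was called (medians 0.05 and 0.11; 0 in WT and 1 in KO at an unadjusted edgeR p under 0.05). Of 5 genes that differ between C57BL/6 substrains, 0 were called (medians -0.22 and 0.09; 0 in WT and 1 lower in KO at an unadjusted edgeR p under 0.05).

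Cell type markers were examined beside the 3 genes, since a change in the make-up of the tissue would move them. Of 7 proximal tubule markers, Slc5a2, the glucose transporter SGLT2, rose in WT (1.20, edgeR adjusted p = 0.0057) and in KO kidneys (1.54, edgeR adjusted p = 6.3e-04), and Slc5a12, a lactate transporter, in KO (1.13, edgeR adjusted p = 0.0266). The list's median was -0.05 in WT and 0.21 in KO, and Slc7a13 was lower in KO at an unadjusted p under 0.05 (-0.42), beside 0.911% of all genes called in WT and 2.3% in KO. In WT, Slc5a12 was at 0.74 (edgeR adjusted p = 0.325), and was called without WT-SFD mouse 1 (1.09, edgeR adjusted p = 0.0245). The Slc5a12 call in KO was lost without KO-SFD mouse 2, 3 or 4 or KO-HFD mouse 2, 3 or 4. The summed level of the proximal tubule markers, led by Slc34a1, overlapped between the diets, at 13769 to 18819 FPM in WT-SFD and 13126 to 16771 FPM in WT-HFD kidneys, and at 12898 to 14923 and 13295 to 19673 FPM in KO. Of 4 markers of the distal convoluted tubule, 2 rose in KO, Slc12a3 (0.71, edgeR adjusted p = 0.0127) and Pvalb (1.57, edgeR adjusted p = 0.0023). In WT, Slc12a3 was at 0.10 and Pvalb at 0.88, neither past the edgeR test, and Pvalb in WT was called by DESeq2 (0.87, adjusted p = 0.036) and without WT-SFD mouse 2 (1.13, edgeR adjusted p = 0.035). The Slc12a3 call was lost without KO-SFD mouse 2 and in a fit of only the groups compared (0.70, edgeR adjusted p = 0.0742). None of the 4 thick ascending limb markers was called, but all 4 were lower in KO at an unadjusted p under 0.05, a limit that 15.8% of all genes passed. Their sum, led by Umod, was 7535, 6969, 7414 and 6977 FPM in KO-SFD and 5641, 5494, 2988 and 4422 FPM in KO-HFD kidneys, without overlap, and 5053 to 6919 and 4281 to 6319 FPM in WT. Their part in the differences of Igf2bp1 and Fgfbp1 was not tested. Of 7 adipocyte markers, Lep rose in KO (4.97, SE 0.963, edgeR adjusted p = 0.009), with means of 0.182 and 5.96 FPM, and was at 3.02 in WT (edgeR adjusted p = 0.122). Without KO-HFD mouse 3, Lep was at 3.59 in KO, and it was called in WT (3.02, edgeR adjusted p = 0.0207). With 1 kidney left out, its WT value ran from 2.63 to 4.15. The list's median was -0.82 in WT and -1.13 in KO, and Retn was lower in KO at an unadjusted p under 0.05 (-2.46). The summed level, led by Cidec, was 8.74 to 209 FPM in KO-SFD and 7.89 to 74.2 FPM in KO-HFD kidneys. Of the markers of collecting duct (6 tested), podocytes (6), endothelium (4), smooth muscle (4), fibroblasts (5), leucocytes (5), urothelium (5) and blood (5), none was called in a diet contrast by edgeR. At an unadjusted p under 0.05, 5 podocyte markers were higher in KO, and each other list had at most 1 marker past that limit per genotype (7.9% of all genes in WT and 15.8% in KO). No adrenal marker passed the filter, and the adrenal sum reached at most 0.218 FPM in a kidney, with Cyp11b1, Cyp11b2 and Th at 0.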

How the data were processed

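The values are raw counts per gene, 1 column per mouse, which the authors deposited without normalisation for 16 kidneys and 14 aortae. Per the labels and the paper's methods, RNA was depleted of ribosomal RNA and sequenced paired-end, at a university core unit for aortae and by a company for kidneys. The submitters' processing notes name cutadapt, TopHat, featureCounts and mm10. Gene names came from BiomaRt. Strand setting, the annotation used for counting and treatment of multi-mapped reads are not given in the sources used here.

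All columns were used, and each tissue was fitted alone. Counts were filtered by filterByExpr within groups (15034 kidney and 14796 aorta genes), scaled by TMM and fitted with edgeR 4.0.16 in R 4.3.3 (glmQLFit, glmQLFTest, 1 coefficient per group), with Benjamini-Hochberg adjustment over all genes tested. Genes with an adjusted p below 0.05 were called. SE is the log2 fold change divided by the root of F. Crb1 and Igf2bp1 in the aorta, under the filter there, were tested by exact permutation of log2(FPM + 1) with scipy 1.17.1. The steps were tested on simulated data. Ratios of group sums were taken per library size scaled by the TMM factors. Positions and exon lengths came from GENCODE vM21 (40254 of 41128 identifiers found), and promoter windows from RefSeq, in which 2 of the 3 genes were matched. Alternatives were DESeq2 1.42.0, RLE factors, library totals, no filter, the study's threshold of 0.001, only the groups compared, and each library left out. Leaving out the 2 WT-HFD kidneys with the lowest Nnt was added after seeing the data.

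The members and gene lists were chosen with earlier results of these data known. Named genes are the 3 members, Egfr, 5 genes most alike to each (some of those of Crb1 are not reported here), 3 neighbours on each side, near relatives, list genes called in a kidney diet contrast, and markers. Each mouse gave 1 library per tissue.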

Additional observations from a re-analysis of the deposited data

Results flagged for a closer look

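In 28 groups of 4 mice with any spread (the 3 genes, Egfr and Nnt in both tissues), 2 had a sample whose gap to its nearest neighbour passed Dixon's 95% limit as a share of the group's range, and chance gives about 1 in 20. Crb1 was 0.102 FPM in KO-SFD kidney 3, from 2 counts, while the other 3 kidneys of the group had none, so that any count would have passed this limit and the chance of 1 in 20 does not apply. Igf2bp1 was 7.21 FPM in WT-SFD kidney 1, with 133 counts, and its gap to the next kidney took 0.889 of the range.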

How the results depend on the processing

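Crb1, Igf2bp1 and Fgfbp1 were chosen for their kidney diet differences, and their diet groups did not overlap. Leaving out 1 library could thus not reverse these differences, which kept their direction under every alternative run. With 1 library left out, those of Crb1 lay between 5.40 and 7.18 in WT (highest without WT-SFD mouse 3) and from 6.03 to 8.77 in KO (highest without KO-SFD mouse 3), those of Igf2bp1 from -2.27 to -1.95 and from -2.24 to -1.87, and those of Fgfbp1 from -0.95 to -0.83 and from -1.65 to -1.35. The KO minus WT value of Crb1 ran from -0.78 to 2.98. For KO against WT, Crb1 ran from -1.85 to 0.032, Igf2bp1 from 0.33 to 0.51 and Fgfbp1 from 0.13 to 0.28. Egfr in the kidney, KO against WT, was near 0 and changed sign, with 0.00014 by DESeq2, 0.00011 with RLE factors, 0.058 without both WT-HFD kidneys of lowest Nnt and -0.050 to 0.056 with 1 kidney left out.

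Counts of genes called moved more. DESeq2 called 263 kidney genes in WT (137 by edgeR), with 2 of the pathway lists, 695 in KO (346 by edgeR), with 4 of these lists, 1 for the difference between the genotypes and 17 for KO against WT (2 by edgeR). At an adjusted p under 0.001, the edgeR counts were 23, 48 (0 of the pathway lists) and 1. RLE factors and library totals each called 1 gene for KO against WT. A fit of only the groups compared called 228 genes in KO, and leaving out both WT-HFD kidneys with the lowest Nnt called 88 in WT. With 1 kidney left out, the counts were 92 to 136 in WT, 196 to 403 in KO (196 without KO-SFD mouse 2, 207 and 197 without KO-HFD mice 3 and 4) and 1 to 3 for KO against WT.

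In the aorta, edgeR called 0 genes for diet (2464 in WT and 1106 in KO at an unadjusted p under 0.05). In WT aortae, DESeq2 called 666, library totals 219 and no filter 527, each with 1 gene of the pathway lists. Leaving out 1 aorta gave 0 to 1801 genes, with 0 to 3 of these lists (1801 without WT-SFD mouse 3, 497 and 333 without KO-SFD mice 1 and 3). In KO aortae, DESeq2 called 8 and no filter 6. DESeq2 called 2 genes for the difference between the genotypes and 55 for KO against WT (29 by edgeR, 12 at an adjusted p under 0.001, 22 to 38 with 1 aorta left out). The cause was not tested. Library totals in place of TMM shifted the median aorta gene by 0.11 in WT and -0.11 in KO for diet and by 0.18 for KO against WT (log2), ended the call of Egfr in the aorta (-0.73 to -0.49 over all alternatives), and turned the aorta value of Crb1 in WT to 0.0092 (exact permutation p = 0.971). With 1 aorta left out, Crb1 lay between -0.15 and 0.095 (WT) and between 0.09 and 0.31 (KO), and Igf2bp1 between -0.15 and 0.10 (WT) and between -0.0035 and 0.10 (KO).

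No paired analysis was possible because the groups compared, all within 1 tissue, share no replicate number or mouse in the labels. The 3 mice sequenced for both tissues link only groups that were not compared. Counts of 0 to 4 limit what can be said of Crb1 on SFD and of all 3 genes in the aorta.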
